A study of Bos taurus with 48 samples.

Results

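The genes described here are 200 of the 25669 in a count table of bovine blood leukocytes, chosen because their read counts differed between calves and stayed alike within a calf over d 0, 1 and 2. Leukocytes came from 12 intact male Simmental beef calves, labelled Continental, that were born in spring. All had been vaccinated against respiratory viruses before the study and all were moved from pasture to pens on d 0. The 6 control calves were housed with their dam, 2 cow and calf pairs to a pen, and the 6 weaned calves were housed and taken from their dam at the same time, 4 calves to a pen. Blood was taken just before the move on d 0 and again on d 1, 2 and 7, for 1 library per calf and day and 48 in all, and calves are named here by the number in their label.

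The members were found from counts divided by the library total and multiplied by 1000000 (CPM). Of the 9124 genes with a mean of at least 10 CPM over the 36 libraries of d 0, 1 and 2, the 200 with the largest variance ratio F between and within the 12 calves on the log2(CPM + 1) scale were taken, after 3 collagen genes had been left out by name. F was 8.65 to 111 in the members, with a median of 11.4, and 1.71 at the median of the other genes. The last 3 members had F of 8.68, 8.67 and 8.65, and the first 3 genes outside had 8.62, 8.62 and 8.61, so that the set has no natural edge. Because d 0, 1 and 2 chose the members, values of those days are a description, and d 7, which the rule did not use, carries the test of whether a calf's level held. Comparisons that take in d 0 libraries are not independent of the choice, and this is said beside them.

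A blood leukocyte sample is a mixture of neutrophils, lymphocytes, monocytes and rarer cells, and a transcript level in it follows both the make-up of the mixture and the level in each cell. In such a mixture, fewer cells of a type and less RNA per cell cannot be told apart. Transcript levels in blood are known to differ between healthy animals of an outbred population, and part of that variation is inherited, which is general background and was not examined here.

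Symbols could be given to 643 genes of the table, and 5 members were among them: MYH14 (a heavy chain of non-muscle myosin), CCL4 (a chemokine that attracts monocytes and lymphocytes), LAMA4 (a laminin chain of vessel basement membrane), PIGR (the receptor that carries polymeric immunoglobulins across epithelia) and FBN1 (fibrillin-1, the main protein of extracellular microfibrils). The other 195 are known here by Ensembl identifier only. The 24 lists of genes for blood cell types, antigen presentation, interferon response and other functions held 0 of the 5 named members, but several of them had no identified gene at all, and antigen presentation had 2 of 50 and interferon response 1 of 46, so that nothing is read from this. Of 124 cell type markers 21 were identified, the labelled tissue could not be checked fully and the cell make-up was not assessed. Total counts per library were 1662995 to 4256011, with a median of 3600161. A count of at most 3, the floor, was not taken to differ from none, and 3 counts were 0.705 to 1.80 CPM. Members lay at a mean of 10.3 to 490 CPM, with a median of 38.4 CPM against 64.4 CPM in the other genes. Values of single genes below are CPM with the library total scaled by the trimmed mean of M-values (TMM).

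Over the 200 members, 5 of the 48 libraries were not nearest to another library of the calf in their label. This was measured by Pearson correlation across the members of log2(CPM + 1), centred for each gene, and it is a description, since the rule used the labels of d 0, 1 and 2. In the other 43 libraries, the highest correlation with an own library was 0.627 to 0.965, with a median of 0.902, and the nearest library of another calf had a median of 0.230.

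**Figure D1:**
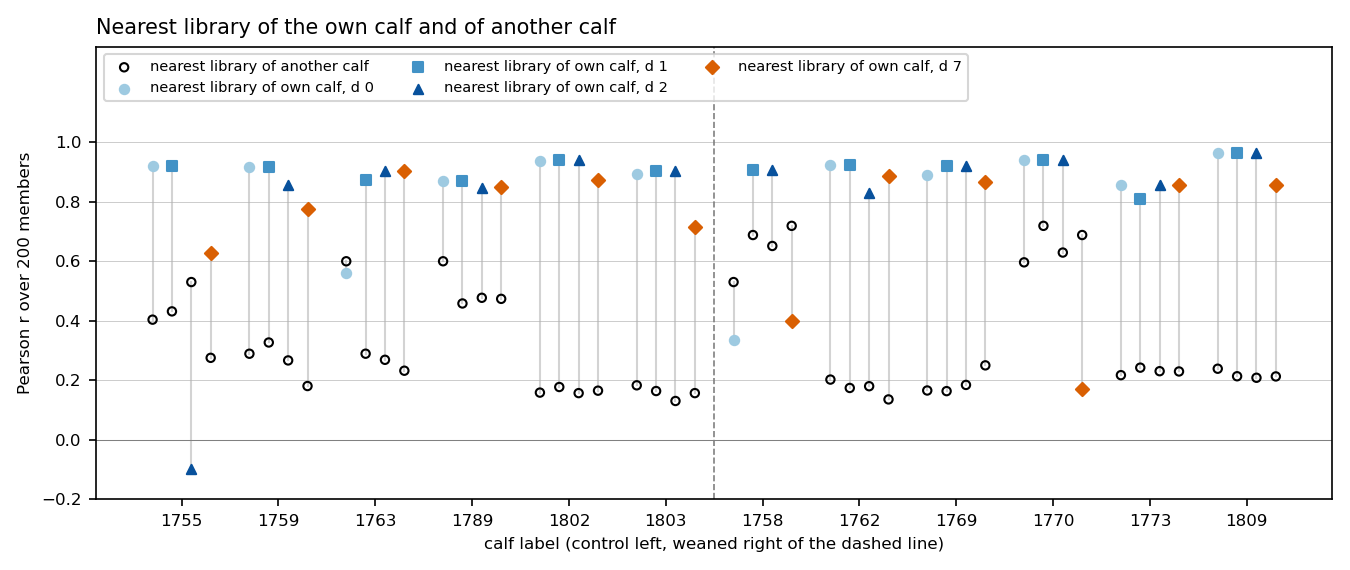
For each of the 48 libraries, the highest Pearson correlation over the 200 members with another library of the same calf (filled symbols, by day) and with a library of any other calf (open circles), by calf label. The open circle lies above the filled symbol in 5 libraries: calf 1755 on d 2, calf 1758 on d 0 and 7, calf 1763 on d 0 and calf 1770 on d 7.

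The d 7 library labelled calf 1758 had a correlation of 0.719 with calf 1770 on d 1 and at most 0.399 with its own label. The d 7 library labelled calf 1770 had 0.688 with calf 1758 on d 1 and at most 0.170 with its own. Both calves were weaned, so an exchange within this pair would leave the weaned group of d 7 with the same libraries. Whether both libraries came from this pair was not tested.

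The d 2 library labelled calf 1755, a control, had correlations of -0.24 to -0.10 with its own label and 0.530 with the d 0 library labelled calf 1758, a weaned calf, which in turn had at most 0.334 with its own. These 2 libraries stand in groups of different treatments. The d 0 library labelled calf 1763 had 0.560 with its own label and 0.600 with calf 1789 on d 0, a smaller gap. When the 200 genes were chosen by the same rule on the other 8 calves alone, the same count of 43 libraries was nearest to its own label.

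Over all 9124 genes, the same measure put 35 of the 48 libraries nearest to their own label. There the d 7 library labelled calf 1758 was nearest to its own label, at 0.929 against 0.904 with calf 1755, which differs from the result over the members. The other 4 were nearest to another calf over all genes too. The d 7 library labelled calf 1770 had 0.247 with calf 1758 on d 1 and at most 0.161 with its own. The d 0 library labelled calf 1758 had 0.691 with calf 1755 on d 7, and not on d 2, and at most -0.15 with its own. The d 2 library labelled calf 1755 was nearest to calf 1803 on d 0, at 0.2685. The d 0 library labelled calf 1763 was nearest to calf 1755 on d 0, at 0.839. Of the 5 libraries, only the one labelled calf 1770 had the same nearest library as over the members. No library was moved to another calf, and the cause was not tested. Counts and named genes that rest on the 5 libraries are given with and without their calves in several comparisons, but not in all.

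The 48 libraries were run on 8 sequencing flowcells, which were compared as a possible source of likeness. Leaving out calves 1758 and 1770 and the 2 other libraries that went against their labels, the correlation over the members of a d 7 library with an earlier library of its calf was 0.818 at the median where both were run on 1 flowcell (18 pairs) and 0.742 where they were run on different ones (10 pairs, 0.522 to 0.850). Libraries of different calves on 1 flowcell reached at most 0.143 (24 pairs), with a median of -0.21. Over all genes, the medians of the same-calf pairs were 0.529 on 1 flowcell and 0.071 on different ones (down to -0.64). Different calves there reached 0.49 on 1 flowcell and 0.72 on different ones. For 6 calves all libraries were run on 1 flowcell, so in them likeness within a calf and within a flowcell cannot be told apart. The members were chosen for likeness within a calf, and the part of the flowcell was not tested.

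Between the highest and the lowest calf, the members differed by a median of 1.63 on the log2 scale, or 3.10-fold, with a smallest range of 0.41 and a largest of 6.18. The range was at least 1 in 169 members, at least 2 in 66 and at least 4 in 14, and its median was 0.66 in the other genes. The SD within a calf was similar, at a median of 0.25 in the members and 0.26 in the other genes, on the log2 scale. At the median, the range between calves was thus larger in the members, and the SD within a calf was about that of the other genes. Both come from the days that the rule used, and the members lay at lower CPM than the other genes, so this is a description. In some members the SD within a calf was small. ENSBTAG00000002103 had a range of 0.87 with an SD within a calf of 0.055, and ENSBTAG00000007584 had 0.66 with 0.087.

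The pattern over calves was not of 1 kind. When calves were ordered by level and split at the widest gap, 1 calf stood alone in 88 members, above the others in 38 and below in 50. In 69 members the smaller side held 2 or 3 calves, and in 43 members at least 4 calves lay on each side. The first principal component of the calf levels, scaled for each gene, held 34.6% of their variance in the members and 41.5% over all 9124 genes, and the first 3 held 59.9% and 67.1%.

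Kinds of pattern are shown by 4 members that have no symbol and that were chosen after their values were seen. The gene with the largest F, ENSBTAG00000021077, fell into 5 calves with high and 7 with low levels. Control calf 1759 had 235, 251, 497 and 452 CPM on d 0, 1, 2 and 7, and control calf 1763 had 206, 233, 189 and 209 CPM. Weaned calf 1770 had 177, 157, 159 and 193 CPM. Calves 1758 and 1789 lay between 121 and 258 CPM in every library, while the 28 libraries of the other 7 calves lay between 7.35 and 32.5 CPM. On d 7 alone the 5 calves were at 121 CPM or more and the 7 calves at 25.5 CPM or less, and both treatments held calves of both levels, 3 control and 2 weaned calves being high. The groups of calves did not overlap in any library.

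In ENSBTAG00000038128, weaned calf 1762 stood alone at the bottom. It had 2.32, 1.99, 3.87 and 2.43 CPM on d 0, 1, 2 and 7, from 7 to 9 counts, which is above the floor of 3 counts. The lowest value among the other 11 calves was 19.3 CPM, in calf 1755, and the highest 308 CPM, in calf 1759. The 5 calves that were high in ENSBTAG00000021077 were also the 5 with the highest levels of this gene on d 7, between 104 and 297 CPM, and the next calf had 59.1 CPM.

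In ENSBTAG00000005666, weaned calf 1809 had 21.1, 18.9, 19.7 and 14.1 CPM. The other 44 libraries lay between 94.6 and 264 CPM, and the lowest of them was the d 7 library labelled calf 1758. Calf 1809 therefore lay below every library of the other calves on each day.

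ENSBTAG00000040485 was at or near 0 in some calves. Control calf 1803 had 0, 1, 0 and 0 counts on d 0, 1, 2 and 7. Weaned calf 1770 had 0 counts on d 0, 1 and 2, and the d 7 library with its label had 23 counts, or 6.83 CPM. Calf 1758 had 15.3, 7.58 and 3.30 CPM on d 0, 1 and 2, and the d 7 library with its label had 1 count, or 0.268 CPM. The other 9 calves had 3.40 to 22.3 CPM in every library. It was 1 of 3 members, and of 3 genes among all 9124, in which a calf had at most 3 counts in all 4 of its libraries.

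**Figure D2:**
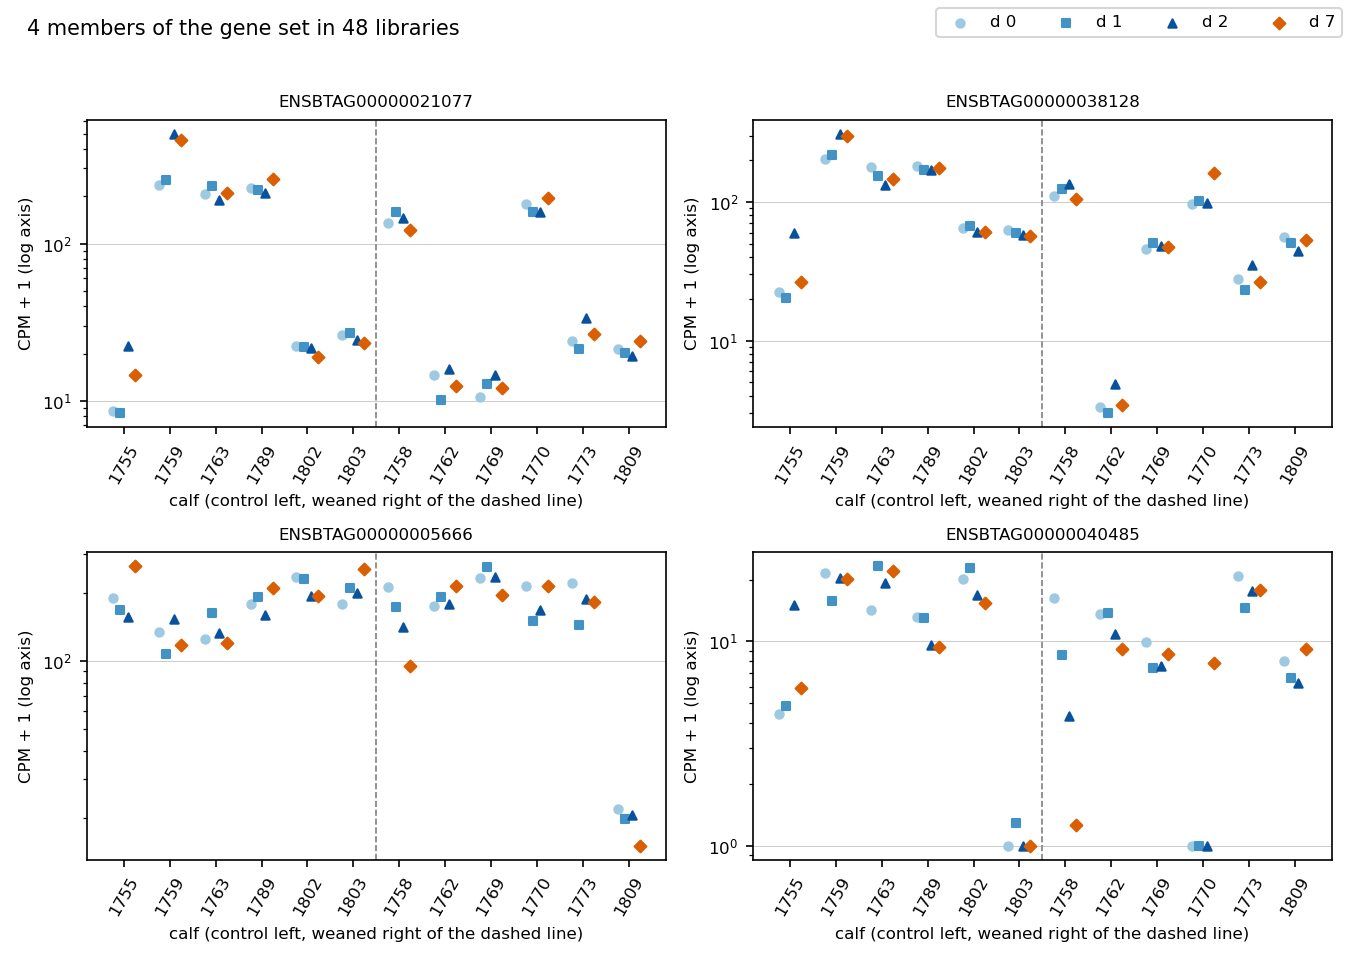
CPM + 1 (TMM-scaled, log axis) of 4 members without a symbol in each of the 48 libraries, by calf and day. ENSBTAG00000021077 splits the calves 5 to 7, calf 1762 lies alone at 1.99 to 3.87 CPM in ENSBTAG00000038128, calf 1809 lies alone at 14.1 to 21.1 CPM in ENSBTAG00000005666, and ENSBTAG00000040485 has 0 or 1 count in calf 1803.

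The calves did not take equal parts in these extremes. Calf 1809 was the highest calf in 45 members, calf 1770 in 37 and calf 1802 in 29, and calf 1759 was the lowest in 51 and calf 1762 in 22. Calf 1758 was the highest in 4 and the lowest in 8. The d 2 and d 7 libraries of calf 1759 had total counts of 1662995 and 1992050, the 2 smallest of the 48, and the part of depth in its low values was not tested.

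The question put to d 7 was whether a calf's level held beyond the days that chose the gene. For every gene of at least 10 CPM, the d 7 level was correlated over the 12 calves with the mean of d 0, 1 and 2 on the log2(CPM + 1) scale, and p came from a two-sided permutation test with 100000 permutations of the calves, adjusted by Benjamini-Hochberg over the 9124 genes. A repeat was called at an adjusted p under 0.05 and a positive correlation. It was called in 39 of the 200 members (19.5%), against 2.62% of all genes, and the lowest r among the 39 was 0.800. The median r was 0.678 in the members and 0.388 in the other genes, and r was above 0 in 191 members. By Spearman correlation, which uses ranks alone, the repeat was called in 8 members (4.0%), against 0.384% of all genes, and the median coefficient was 0.608 in the members.

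Without calves 1758 and 1770, whose d 7 libraries resembled each other's earlier ones, the repeat was called in 49 members (24.5%), against 1.53% of all genes, and the median r was 0.794. Of these, 31 were also among the 39. The correlation was higher without the 2 calves in 178 members, and r above 0.9 was found in 43 members instead of 17. The 2 calves were set apart because their d 7 libraries were unlike their own earlier ones over these members. A higher correlation without them was therefore largely fixed in advance, and nothing is read from the rise. Without calves 1755, 1758, 1763 and 1770, an alternative added after seeing the data, an exact test over 8 calves called 65 members against 4.04% of all genes, with a median r of 0.859. That alternative leaves out the same 2 calves and has the same limit. ENSBTAG00000021077 and ENSBTAG00000038128 were called with and without calves 1758 and 1770 (adjusted p by permutation 0.0114 for both with all calves), and their p of 1e-05 was the smallest that the permutations could give.

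**Figure D3:**
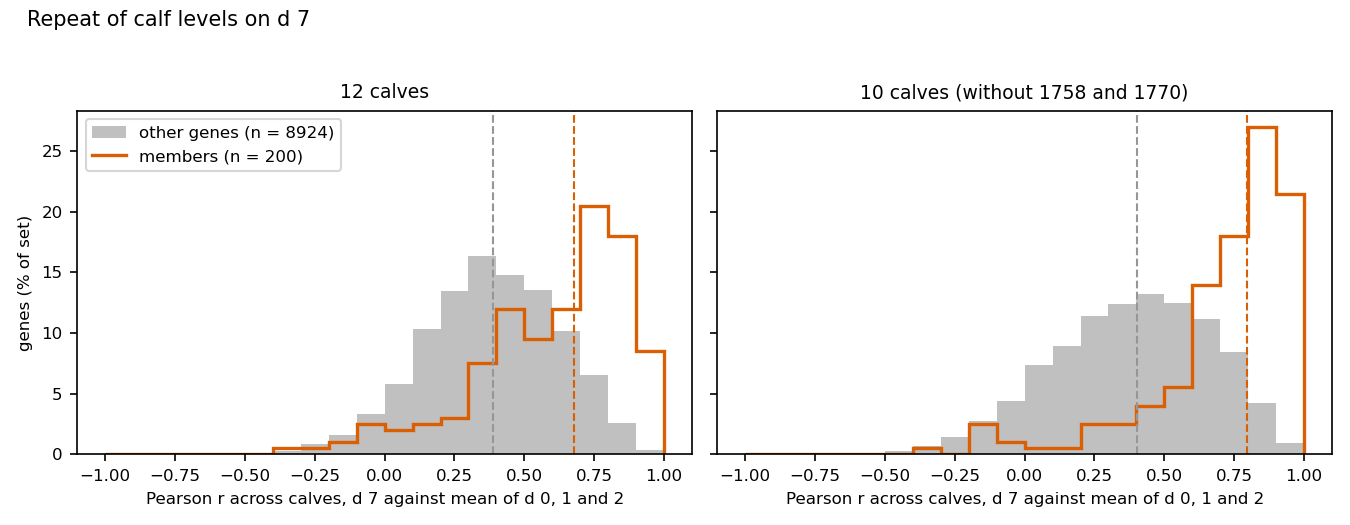
Distribution of Pearson r across calves between the d 7 level and the mean level of d 0, 1 and 2, as percent of the 200 members (line) and of the 8924 other genes (filled), for all 12 calves and without calves 1758 and 1770. Dashed lines are medians, which lie at 0.678 and 0.388 with all calves and at 0.794 and 0.402 without the 2.

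The number called depended on single calves in both directions. Without calf 1759 it was 7 members, with 0.230% of all genes called, and without calf 1755 it was 92, with 19.0% of all genes called. In every case the share was higher in the members than over all genes. With both levels centred on the treatment mean and permuted within treatment, 23 members were called, against 1.55% of all genes.

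The calf with the highest d 0 to 2 level was again the highest on d 7 in 72 members (36.0%), against 23.3% of all genes, and the calf with the lowest level was again the lowest in 78 (39.0%), against 15.8%. Without calves 1758 and 1770 these counts were 88 and 85, against 28.2% and 23.9% of all genes. Between-calf SD on d 7 was 0.53 at the median of the members and 0.35 over all genes, on the log2 scale.

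By calf, the repeat was uneven. Calf 1809 was again the highest on d 7 in 27 of its 45 members (60%), and among all genes in which it was the highest calf the share was 59.8%, about the same as in the members. Calf 1759 was again the highest in 8 of 14 members (57.1%), below its share of 77.2% over all genes. Calf 1789 was again the highest in 13 of 21 (61.9%), against 34.6%. Calf 1762 was again the lowest in 15 of 22 (68.2%), against 14.7% of all genes in which it was the lowest, and calf 1763 in 8 of 9 (88.9%), against 17.5%. Calf 1759 was again the lowest in 22 of 51 (43.1%), against 27.6%. Calf 1755 was again the highest in 0 of 6 and the lowest in 0 of 7, against 1.24% and 4.07%. Of the 37 members highest in calf 1770, the d 7 library with its label was the highest in 1 and among the 3 highest in 8, and the library labelled calf 1758 was the highest in 1 and among the 3 highest in 7. Of the 17 members lowest in calf 1770, the library labelled calf 1758 was the lowest on d 7 in 8 and among the 3 lowest in 12, and the library labelled calf 1770 was the lowest in 0 and among the 3 lowest in 1.

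**Figure D4:**
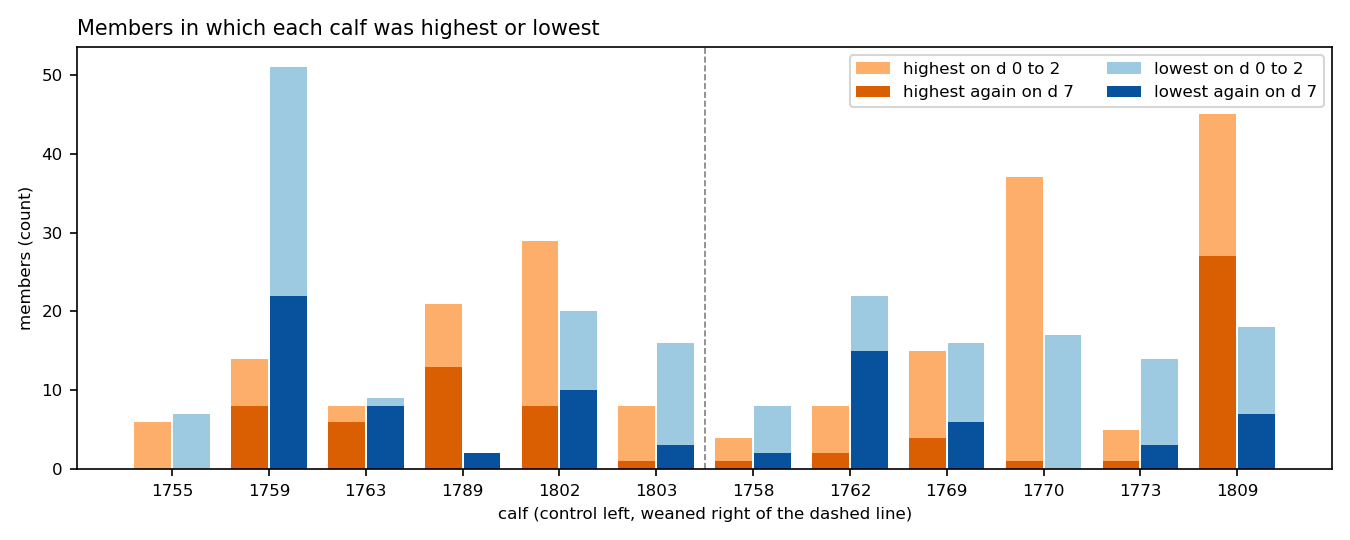
Number of members in which each calf had the highest (left bars) or lowest (right bars) mean level on d 0 to 2, with the part in which the d 7 library of the same label was again the highest or lowest in dark colour. Calf 1809 repeated 27 of 45 high members (60%, and 59.8% over all genes highest in it) and calf 1762 repeated 15 of 22 low ones (68.2%, and 14.7%), whereas calf 1770 repeated 1 of 37 (2.70%, and 0.565%) and 0 of 17 (0%, and 0.0936%).

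Within the 5 pairs of calves whose d 7 libraries were run on 1 flowcell, the order of both calves on d 7 was that of d 0 to 2 in all 5 pairs for 33 members (16.5%), against 4.33% of all genes. In the 3 pairs without calves 1755, 1758, 1763 and 1770, it was so for 86 members (43.0%), against 25.4%. The excess was uneven over the pairs. In the pair 1755 and 1758 the order held in 48.5% of the members and 21.4% of all genes. The shares were 64.5% and 62.1% for 1759 and 1762, and 80.5% and 75.0% for 1763 and 1769. They were 88.5% and 61.8% for 1789 and 1802, and 74.5% and 67.1% for 1803 and 1773. Calves 1755, 1758 and 1763 each have a library that went against its label. These are counts without a test.

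Of the 5 members with a symbol, none met the threshold for a repeat on d 7 with all 12 calves. FBN1 had high and low calves. Weaned calf 1769 had 147, 168, 159 and 165 CPM on d 0, 1, 2 and 7, and weaned calf 1773 had 102, 151, 95.7 and 111 CPM. Calves 1762, 1802 and 1809 stayed between 3.01 and 7.74 CPM. Calves 1755, 1758 and 1770 differed widely between their own libraries, and each of them has a library that went against its label. Calves 1759, 1763, 1789 and 1803 also varied, at 4.85 to 27.6, 3.02 to 15.6, 3.20 to 16.9 and 4.87 to 15.4 CPM. Of these, only calf 1763 has such a library.

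For FBN1, control calf 1755 had 159 and 151 CPM on d 0 and 1, 3.59 CPM in the library labelled d 2, and 71.0 CPM on d 7. Weaned calf 1758 had 49.9, 189 and 205 CPM on d 0, 1 and 2 and 38.9 CPM in the library labelled d 7. Weaned calf 1770 had 6.59, 4.73 and 2.50 CPM, and 96.5 CPM in the library labelled d 7. Since the calves fall into 2 clusters, no correlation over them is given. In the permutation test the adjusted p was 0.0918 with all calves and 0.0400 without calves 1758 and 1770. Those 2 calves were set apart because of their d 7 libraries, so nothing is read from a rise without them, here or in the genes below.

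LAMA4 was lowest in control calf 1759, which had 7.67, 11.0, 4.85 and 4.20 CPM on d 0, 1, 2 and 7. Control calf 1755 was the highest over d 0 to 2, with 82.1, 83.3 and 35.0 CPM, and had 30.9 CPM on d 7. Over the 12 calves, d 7 followed the earlier mean with r = 0.761 (permutation p = 0.00465, adjusted p = 0.0823) and Spearman's rho = 0.853 (permutation p = 0.000800, adjusted p = 0.0658). Without calves 1759 and 1802, the farthest from the median, r was 0.465 (permutation p = 0.173), so that the size of r depended on them. Leaving out the farthest calves narrows the range of levels, so whether the relation rested on them alone was not decided. Without calves 1758 and 1770 instead, r was 0.828 (adjusted p by permutation 0.0846).

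CCL4 was highest in weaned calf 1769, with 41.2, 54.2 and 39.3 CPM on d 0, 1 and 2, and that calf had 23.0 CPM on d 7. Calf 1758 was the lowest, with 14.4, 12.8 and 6.37 CPM and 11.8 CPM in the library labelled d 7. The correlation was 0.688 (permutation p = 0.0135, adjusted p = 0.127), with rho of 0.741 (permutation p = 0.00759, adjusted p = 0.140), and without calves 1769 and 1759 it was 0.662 (permutation p = 0.0396). Without calves 1758 and 1770 instead, r fell to 0.648 (adjusted p by permutation 0.219).

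PIGR was highest in control calf 1763, whose 4 libraries in order of day had 21.4, 34.9, 60.6 and 35.2 CPM, and the d 0 library went against its label. Its r was 0.557 (permutation p = 0.0604, adjusted p = 0.231), with rho of 0.483 (permutation p = 0.116, adjusted p = 0.355), and 0.042 without calves 1763 and 1802 (permutation p = 0.907). The size of r therefore depended on those calves, with the same limit as for LAMA4. With calves 1758 and 1770 left out instead, r was 0.837 (adjusted p by permutation 0.0630).

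MYH14 was highest in control calf 1802, with 160, 152, 155 and 137 CPM on d 0, 1, 2 and 7. Weaned calf 1809 was the lowest over d 0 to 2, with 28.7, 20.8 and 21.5 CPM, and had 91.1 CPM on d 7. Its r was 0.368 (permutation p = 0.238, adjusted p = 0.443), with rho of 0.608 (permutation p = 0.0400, adjusted p = 0.253), and 0.014 without calves 1802 and 1759 (permutation p = 0.967). Leaving out calves 1758 and 1770 instead gave r of 0.524 (adjusted p by permutation 0.342). With levels centred within treatment, r was -0.30 (adjusted p by permutation 0.465).

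**Figure D5:**
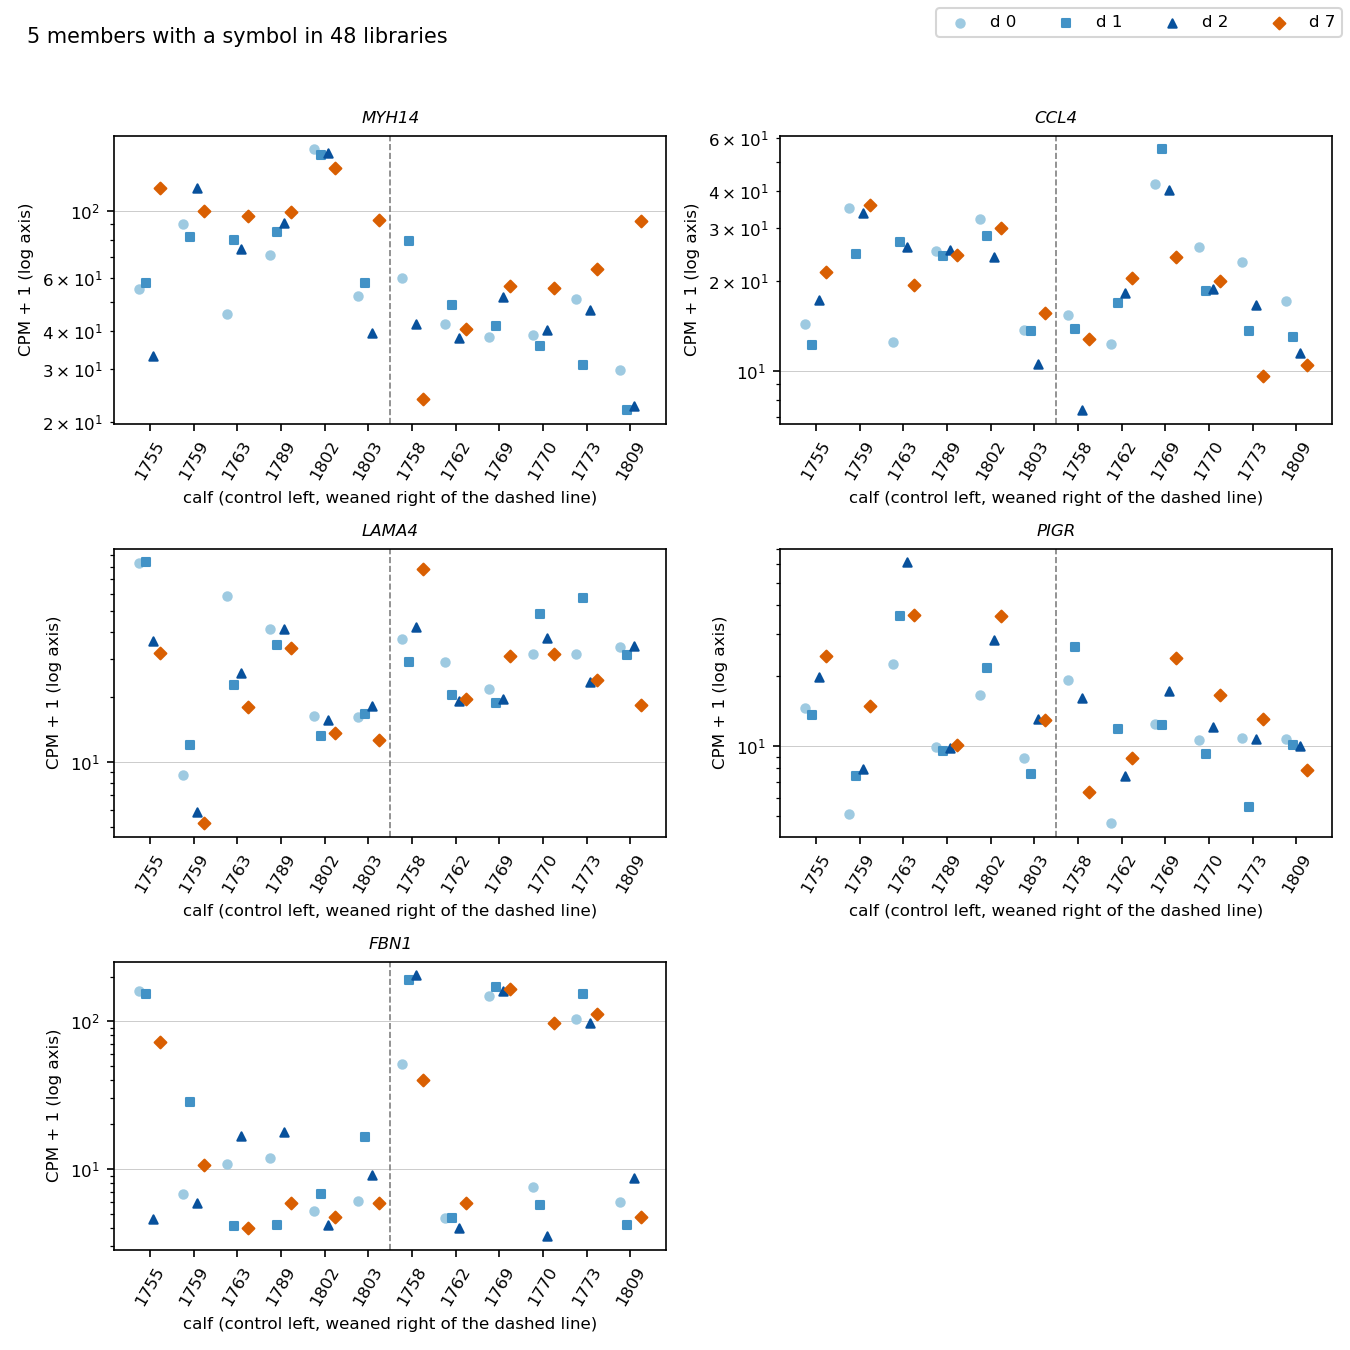
CPM + 1 (TMM-scaled, log axis) of MYH14, CCL4, LAMA4, PIGR and FBN1 in each of the 48 libraries, by calf and day. In MYH14 the 6 weaned calves lie at or under 91.1 CPM on d 7 and the 6 control calves at or above 92.2 CPM, and in FBN1 calves 1769 and 1773 lie at 95.7 CPM or more in all 4 libraries.

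Weaned and control calves were compared on d 7 over all genes with edgeR's quasi-likelihood F-test, and a call needed both a 2-fold change or more and a p, adjusted by Benjamini-Hochberg, below 0.05. No member was called, and no gene of the 13932 tested was called (0%). At an unadjusted p under 0.05 there were 19 members (9.50%), against 25.5% of all genes tested. The median size of the change was 0.22 on the log2 scale in the members and 0.33 over all genes. The DESeq2 Wald test called 0 members and 26 genes (0.187%). With a single dispersion for all genes, the exact test in edgeR called 8 members among 865 genes (6.21%), of which 3 were higher in weaned calves (5.46% of all genes) and 5 were lower (0.754%).

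Without weaned calf 1809, the F-test on d 7 called 7 members among 1136 genes (8.20%), 2 of them higher in weaned calves (7.50% of all genes) and 5 lower (0.700%). The absence of calls on d 7 therefore rested on that calf.

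MYH14 was the only member whose weaned and control calves did not overlap on d 7 (0.5% of the members), against 1.14% of all genes. On d 7 control calves had 92.2 to 137 CPM, with a median of 98.6, and weaned calves 22.8 to 91.1 CPM, with a median of 55.0. Before housing, on d 0, control calves had 78.1 ± 43.1 CPM and weaned calves 42.2 ± 10.6 (SD, n = 6 each). The medians were 62.1 and 39.4 CPM, and control calf 1802 was the highest, at 160 CPM. On that day 4 weaned calves lay below every control calf. The d 0 libraries of the lowest control calf (1763, 44.4 CPM) and the highest weaned calf (1758, 58.7 CPM) went against their labels. The rule used the d 0 libraries, so the d 0 values of MYH14 are a description. On d 0, 0 members were without overlap between the calves later weaned and the control calves, against 0.0438% of all genes. The log2 change of MYH14 on d 7 was -0.97 ± 0.24 (SE), with an adjusted p of 0.158 by the F-test. On d 0 it was -0.89 ± 0.29, with an adjusted p of 0.624 by the F-test. The exact permutation p on d 7 was 0.00216 (two-sided), the smallest that 6 against 6 allows. Groups without overlap always give that p, and MYH14 is singled out here for the lack of overlap, so nothing is read from it. The adjusted p of MYH14 on d 7 was 0.0396 by the DESeq2 Wald test, and 0.0269 by the F-test without calf 1809, with a log2 change of -1.18.

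On d 7, FBN1 ranged from 3.77 to 165 CPM in weaned calves (median 67.7) and from 3.02 to 71.0 CPM in control calves (median 4.88). The log2 change was 2.11 ± 0.86 (SE), with an adjusted p of 0.168 by the F-test (exact permutation p = 0.115). Of the 6 weaned calves, 3 lay above every control calf. Without calf 1809 the change was 2.37 with an adjusted p of 0.0376 by the F-test, and without control calf 1755 it was 3.82 with an adjusted p of 0.255.

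LAMA4, PIGR and CCL4 overlapped between the treatments on d 7. LAMA4 had a median of 26.4 CPM in weaned and 14.8 CPM in control calves (log2 change 0.83, adjusted p = 0.217 by the F-test), and its highest value, 77.2 CPM, was that of the library labelled calf 1758. Without that library the log2 change was 0.38 (adjusted p = 0.585 by the F-test). PIGR had medians of 9.98 and 18.5 CPM (-0.87, adjusted p = 0.185 by the F-test), and CCL4 had medians of 15.4 and 21.9 CPM (-0.61, adjusted p = 0.194 by the F-test).

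On d 0, before any treatment, no member and no gene of 13926 (0%) was called by the F-test, and 22 members (11.0%) had an unadjusted p under 0.05, against 6.23% of all genes. The rule used these libraries, so nothing is read from the counts. The DESeq2 Wald test called 0 members and 0 genes as well. When all genes shared a single dispersion, the exact test found 68 genes on d 0 (0.488%), and 7 of these were members, 6 higher (0.309% of all genes) and 1 lower (0.180%) in calves later weaned. Without calves 1758 and 1763, whose d 0 libraries went against their labels, the F-test called 0 members, and 15 had an unadjusted p under 0.05, against 2.16% of all genes.

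In weaned calves, d 7 was compared with d 0. The d 0 libraries helped to choose the members, so that the counts and p values of this comparison, of the same one in control calves and of the interaction are a description of the members and support nothing further. No member was called and no gene of 14026 (0%), and 2 members had an unadjusted p under 0.05 (1.00%), against 2.66% of all genes. The DESeq2 Wald test called 0 members and 1 gene. With calf as a replicate block, which compares each calf with itself, 10 members had such a p, against 2.73% of all genes. Without calves 1758 and 1770 the blocked fit had 34 (17.0%), against 7.60% of all genes, and again called 0 members and 0 genes.

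In control calves, again with d 0 libraries that the rule used, 5 members were called higher on d 7 than on d 0 and 0 lower. Over all 13829 genes 515 were called (3.72%), 62 of them higher (0.448%) and 453 lower (3.28%). The 5 members rose by 1.05 to 1.51 on the log2 scale (adjusted p 0.0256 to 0.0423 by the F-test) and lay at a mean of 10.8 to 27.9 CPM, and none has a symbol. On d 7 each was higher than on d 0 in all 5 control calves other than 1763, and 3 of them in all 6. The median log2 change was 0.28 in the members and 0.05 over all genes, and 28 members had an unadjusted p under 0.05 (14.0%), against 40.1%.

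With calf as a replicate block, 7 members were called in control calves, all higher, among 537 genes (3.88%), and they included the 5. The members with an unadjusted p under 0.05 were then 65 (32.5%), against 41.9% of all genes. The 5 calls rested on single calves, and so did those of all genes. Without calf 1755, 1759 or 1763 the F-test called 0 members and 0 genes, and 17, 26 and 24 members had an unadjusted p under 0.05, against 22.2%, 29.7% and 31.9% of all genes. With calves 1755 and 1763 left out of the blocked fit 0 members and 7 genes (0.0529%) were called, and 47 members had such a p (23.5%), against 19.0% of all genes.

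Among the members with a symbol, LAMA4 had 36.4 ± 29.2 CPM on d 0 and 18.1 ± 11.3 on d 7 in control calves (SD, n = 6), and it was lower in 6 of 6 calves. PIGR had 11.9 ± 6.19 and 21.3 ± 11.6 CPM and was higher in 6 of 6 calves, and MYH14 had 78.1 ± 43.1 and 107 ± 17.5 CPM and was higher in 5 of 6 calves. These 3 passed an adjusted p of 0.05 by edgeR's F-test only with calf as a replicate block, at log2 changes of -0.83 ± 0.23, 0.85 ± 0.24 and 0.60 ± 0.17 (SE) and adjusted p of 0.0137, 0.0153 and 0.0168. Without the block the adjusted p values of edgeR were 0.145, 0.0883 and 0.172. None of the changes reached 2-fold. Without calves 1755 and 1763, whose libraries went against their labels, none of the 3 passed in the blocked fit: LAMA4 had -0.40 ± 0.22 (adjusted p = 0.311 by the F-test), PIGR 0.85 ± 0.28 (adjusted p = 0.157) and MYH14 0.30 ± 0.17 (adjusted p = 0.319). FBN1 and CCL4 did not pass in either fit, with changes under the block of -0.64 ± 0.28 (adjusted p = 0.0820) and 0.24 ± 0.22 (adjusted p = 0.401), by the same test. Without the 2 calves these changes were -0.19 and 0.008.

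The change from d 0 to d 7 was also tested for a difference between the treatments, with calf as a block. No member was called and no gene of 14713 (0%), and 31 members had an unadjusted p under 0.05 (15.5%), against 35.8% of all genes. The smallest adjusted p among the members was 0.0811 by the F-test. For LAMA4 the difference, weaned minus control, was 0.80 ± 0.36 (SE, adjusted p = 0.120 by the F-test), for CCL4 -0.72 ± 0.32 (adjusted p = 0.122 by the F-test) and for FBN1 1.21 ± 0.60 (adjusted p = 0.151 by the F-test). Without calves 1758 and 1770, 17 members had such a p, against 13.2% of all genes.

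Without calves 1755, 1758, 1763 and 1770, an alternative added after seeing the data, the interaction called 0 members and 0 genes (0%), and 19 members had an unadjusted p under 0.05 (9.50%), against 5.59% of all genes. The difference was then 0.03 ± 0.30 (SE) for LAMA4, -0.60 ± 0.34 for CCL4 and 0.30 ± 0.33 for FBN1, with adjusted p of 0.745 or more by the F-test. The values of LAMA4 and FBN1 thus rested on those calves.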

How the data were processed

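RNA from total leukocytes of 12 calves was sequenced as 36-base single reads. The authors deposited unnormalised counts for each Ensembl gene (build Btau4.0). Per the methods, reads were aligned with no mismatches, reads with several alignments were suppressed and all but 1 read at each position were removed, which compresses high levels; the submitters' processing notes name CASAVA 1.6, FastQC 0.9.1, Bowtie 0.12.7, HTSeq and edgeR 1.6.12. Whether the counting used strand is not given in the sources used here.

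From the deposited counts, the members and lists were chosen with earlier results of these data known. Members and lists were named through symbols that the study's supplementary tables pair with bovine identifiers. The text names members with a symbol by rank of F, membership in a list, a calf at the floor of 3 counts, or a call, and 4 identifiers chosen after their values were seen. Levels were CPM with TMM factors (edgeR 4.0.16, R 4.3.3), with a pseudocount of 1 before log2. Group comparisons used genes of at least 10 counts in total and edgeR's quasi-likelihood F-test, over all genes and with adjustment over all of them, and 200 members passed this filter in each. DESeq2 1.42.0 was an alternative. Permutation tests and figures were made in Python 3.11.15. The 48 columns all matched a sample label, and 0 columns were left over. Libraries of 1 calf share its number and come from the same animal, so the numbers pair the days. The procedures were tested on simulated data. Intervals from floors cover counting error only. Cell types, sequences and positions were not analysed here.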

Additional observations from a re-analysis of the deposited data

Results flagged for a closer look

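In 10 of 72 groups of 6 calves (9 genes, 2 treatments, 4 days), the highest or lowest calf lay apart from the other 5, its gap to the nearest being over 0.625 of the range of the group in CPM. Chance flags about 1 in 20 groups, and on d 0, 1 and 2 the rule that chose the genes favours such calves. FBN1 in control calves had calf 1755 apart at 159 CPM on d 0, 151 CPM on d 1 and 71.0 CPM on d 7. LAMA4 had control calf 1755 apart at 83.3 CPM on d 1, and the library labelled weaned calf 1758 at 77.2 CPM on d 7, 1 of the 2 d 7 libraries that resembled another weaned calf. CCL4 had weaned calf 1769 apart at 54.2 CPM on d 1 and 39.3 CPM on d 2. MYH14 had control calf 1802 apart at 152 CPM on d 1, and PIGR had weaned calf 1758 at 25.6 CPM on d 1. In ENSBTAG00000005666, weaned calf 1809 was apart on the low side at 21.1 CPM on d 0.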

How the results depend on the processing

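The 39 members called for a repeat on d 7 were 36 to 40 with RLE size factors, total counts, pseudocounts of 0.5 and 5 or genes of at least 1 CPM. They were 8 by Spearman correlation (4.0%, against 0.384% of all genes), 23 within treatment, 7 to 92 with each calf left out, and, in alternatives chosen after seeing the data, 65 without calves 1755, 1758, 1763 and 1770 and 71 of 196 tested (36.2%, against 4.04% of all genes) when the genes were also chosen on the other 8 calves. MYH14's r turned from 0.368 to -0.30 within treatment. The rule shared 167 of the 200 genes after TMM scaling, 85 on genes of at least 50 CPM and 128 on the other 8 calves. Weaned against control calves gave 8 members on d 7 and 7 on d 0 by the exact test with 1 dispersion for all genes, and 0 to 7 on d 7 with each calf left out. With calf as a replicate block, d 7 against d 0 called 7 members in control calves (5 without the block) and 0 in weaned calves, and the blocked fit without calves 1755 and 1763, added after seeing the data, called 0; with each control calf left out the count was 0 to 5. The interaction called 0 with and without the block, and for MYH14 it turned from -0.29 to 0.052 without calves 1758 and 1770 and to 0.32 without the 4 calves (no call in either). The order within flowcell pairs held in 86 members without the 4 calves, over fewer pairs. The cause of these shifts was not tested. Depth limits single libraries to about 0.705 to 1.80 CPM (3 counts), close to the level of calf 1762 in ENSBTAG00000038128.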
